A study of Homo sapiens with 5 samples.

Results

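Peroxiredoxins, glutathione peroxidases and catalase are the enzymes that remove hydrogen peroxide and organic peroxides from cells. The 10 genes described here were taken from the count table by symbol, namely 6 peroxiredoxins (PRDX1 to PRDX6), 3 glutathione peroxidases (GPX1, GPX3 and GPX4) and catalase (CAT), out of 28278 gene symbols. The RNA came from HEK293T, an established line of human embryonic kidney cells that the labels call wild type. The 3 control libraries came from cells without treatment and the 2 ascorbic acid libraries from cells given ascorbic acid (vitamin C) a day after seeding, in the same serum-containing medium, which was renewed repeatedly during treatment. The labels give no dose, they give 1 treatment time for DNA methylation tests and another for RNA methylation tests without saying which applied here, and separate cultures are not stated for the replicates, so the p-values rest on differences among libraries that may be technical repeats.

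A peroxiredoxin reduces peroxide with a reactive cysteine, which is in most members restored by thioredoxin, whereas PRDX6 draws on glutathione. The glutathione peroxidases named here carry selenocysteine at the active site and use glutathione, and catalase splits hydrogen peroxide at a heme iron without needing a reductant. The enzymes are spread over compartments: PRDX1, PRDX2 and PRDX6 mainly in the cytosol, PRDX3 in mitochondria, PRDX5 in mitochondria, peroxisomes and cytosol, PRDX4 in the endoplasmic reticulum (ER), GPX1 in cytosol and mitochondria, GPX4 at membranes, where it reduces lipid peroxides, GPX3 outside the cell as a secreted plasma enzyme made largely in kidney, and CAT in peroxisomes.

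After ascorbic acid the ER enzyme gene PRDX4 and the lipid peroxidase gene GPX4 were lower and the secreted enzyme gene GPX3 was higher. PRDX4 fell to 0.803 of the control level, GPX4 fell to 0.869 of it, and GPX3 rose 1.33-fold. The other 7 genes did not pass the test, with fold changes of 0.926 (CAT) to 1.02 (PRDX5). All 10 genes passed the filter on low counts and were tested. In edgeR's quasi-likelihood test 3 of the 10 genes passed at an adjusted p of 0.05, 1 higher and 2 lower, where 14.3% of all 15271 genes tested passed (8.53% as higher and 5.76% as lower). Scaling by library totals alone moved the calls over all genes from 1303 higher and 879 lower to 1712 and 389, and the 3 calls here held under it. Bulk RNA does not tell fewer cells of a kind from less RNA per cell.

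PRDX4 and GPX4 were the genes that fell, and the sequence just before the start of each is shown because these members moved in the same direction. Both stretches are RefSeq promoter sequence (GRCh38.p14), cut to the bases outside every exon that GENCODE annotates, and capitals mark matches, on either strand, to a GC box (the letters GGGCGG) or a box of the letters CCAAT.
PRDX4 (chrX:23667243-23667445, plus strand): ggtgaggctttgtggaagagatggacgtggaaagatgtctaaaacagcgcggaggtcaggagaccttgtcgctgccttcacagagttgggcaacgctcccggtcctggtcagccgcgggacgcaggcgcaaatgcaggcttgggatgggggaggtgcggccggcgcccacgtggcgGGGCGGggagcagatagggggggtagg
GPX4 (chr19:1103744-1103925, plus strand): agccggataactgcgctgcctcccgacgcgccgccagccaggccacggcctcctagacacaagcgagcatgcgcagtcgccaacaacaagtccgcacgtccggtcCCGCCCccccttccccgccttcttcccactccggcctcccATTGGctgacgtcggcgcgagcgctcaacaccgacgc
The search covered both strands of the 250 bases before the start for 8 of the 10 genes, those with a sequence in the table, and the motifs do not overlap one another as spelled. The PRDX4 window held 1 GC box, 74 bases before the RefSeq start, which lies inside the longer gene span that GENCODE gives. The GPX4 window held 1 GC box, 145 bases before the start, and 2 boxes of CCAAT, 105 and 62 bases before it, the nearer of them in the part not printed. Boxes of CCAAT do not mark the genes that fell: PRDX4 had 0, GPX3, which rose, had 2, and CAT, not called, had 5. Over all 35116 windows of this length, 42.6% held a GC box and 32.0% a box of CCAAT, and each of the 8 windows held at least 1 GC box. The core of the antioxidant response element (TGACNNNGC), the site recognised by NRF2, was in 10.9% of all windows, and these letters were not in the 8 windows searched. The letters TATAAA of a TATA box, in 10.7% of all windows, were not in these 8 either.

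PRDX4 (chromosome X, 23664262 to 23686399, GRCh38), which takes up hydrogen peroxide made during disulfide formation in the ER, was counted 13748, 8879 and 7833 times in control libraries 1 to 3 and 8669 and 8492 times in ascorbic acid libraries 1 and 2. As CPM, the normalised read count scaled by library totals and TMM factors, these were 244, 234 and 226 CPM in the controls and 179 and 199 CPM with ascorbic acid. Both treated libraries lay below all 3 controls. Means were 234.7 ± 9.03 CPM for controls (SD, n = 3) and 188.6 ± 14.04 CPM for treated libraries (SD, n = 2). The log2 fold change was -0.32 ± 0.05 (SE) at an edgeR adjusted p of 5.43e-05, with a 95% interval of 0.749 to 0.862 for the fold. Ranked by p, PRDX4 was number 146 of the genes tested. The call held when any single library was left out (-0.40 to -0.24).

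GPX4 (chromosome 19, 1103926 to 1106791), the selenoenzyme that protects membranes from lipid peroxidation and so from ferroptosis, had 268, 273 and 286 CPM in the controls and 251.4 and 228 CPM with ascorbic acid. The groups did not overlap, and the treated libraries lay further apart than any 2 controls did. Means were 276 ± 9.05 CPM for controls (SD, n = 3) and 239.5 ± 16.8 CPM for treated libraries (SD, n = 2). The log2 fold change was -0.20 ± 0.05 (SE), the edgeR adjusted p 0.00463 and the 95% interval of the fold 0.812 to 0.930. Without ascorbic acid replicate 2, the lower of the treated libraries, the call ended (-0.14, adjusted p = 0.0778).

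GPX3 (chromosome 5, 151020438 to 151028993), which reduces peroxides outside the cell, was the least abundant of the 10 genes. Control libraries held 1238, 806 and 700 counts and treated libraries 1474 and 1111, or 21.99, 21.2 and 20.2 CPM against 30.4 and 26.0 CPM. Both treated libraries lay above all controls. Means were 21.1 ± 0.889 CPM for controls (SD, n = 3) and 28.2 ± 3.12 CPM for treated libraries (SD, n = 2). The log2 fold change was 0.41 ± 0.08 (SE) at an edgeR adjusted p of 0.000417, with a 95% interval of 1.195 to 1.48 for the fold. The call held without any single library, at 0.29 (adjusted p = 0.0336) without ascorbic acid replicate 1 and 0.51 without ascorbic acid replicate 2. In the body GPX3 is made by proximal tubule cells, and of 8 proximal tubule markers 5 were tested, of which 1 was higher (SLC13A3) and 1 lower (LRP2). Their summed level was 32.8 to 35.03 CPM in the controls and 27.89 to 27.96 CPM with ascorbic acid, most of it LRP2 (28.97 to 31.1 CPM and 21.9 to 22.0 CPM). The other 7 together had 3.53 to 3.92 CPM in the controls and 5.94 to 6.08 CPM with ascorbic acid, with SLC34A1 and SLC22A6 at 0 counts in all libraries. Their part in the GPX3 result was not tested.

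**Figure D1:**
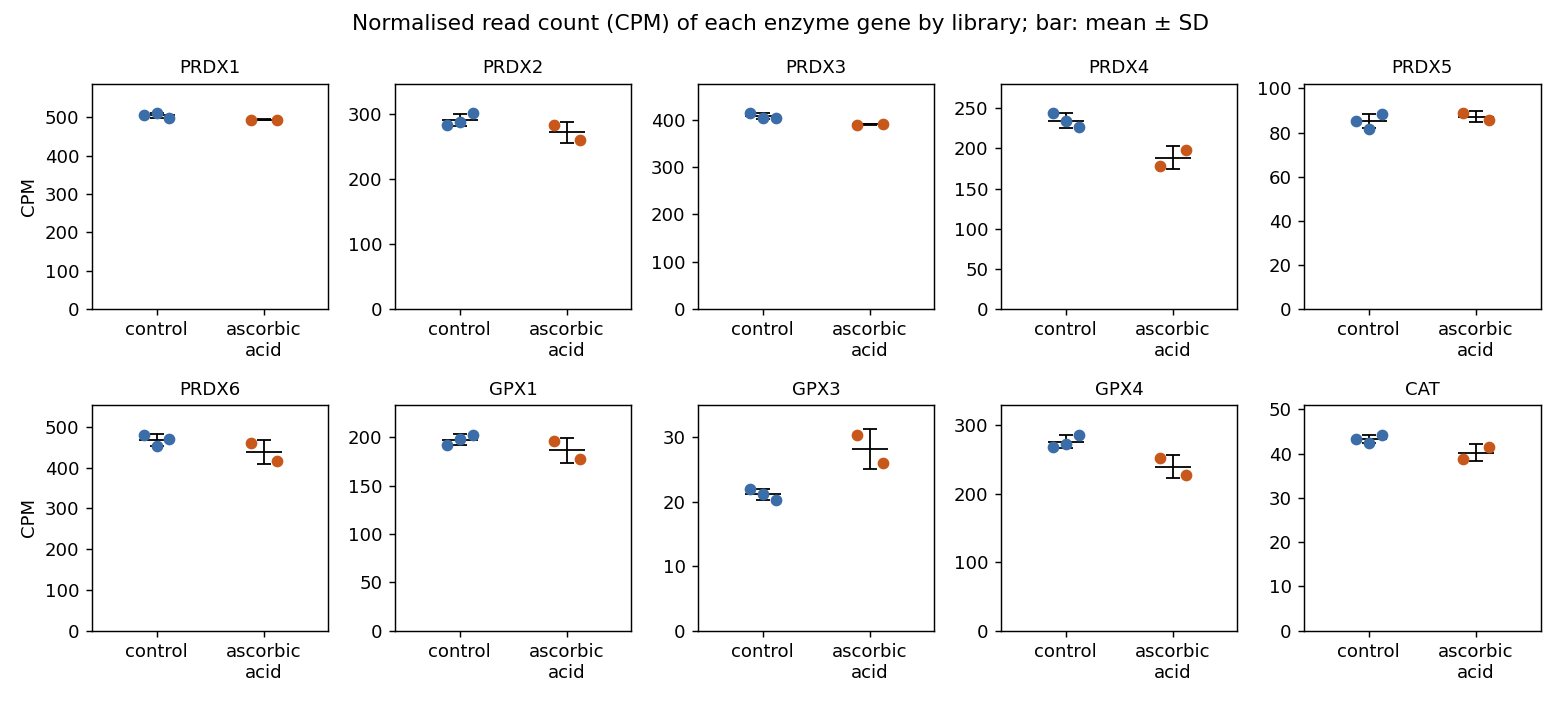
Normalised read count (CPM, y axis from 0) of the 10 genes in the 3 control and 2 ascorbic acid libraries. Points are libraries and bars the mean ± SD. PRDX4 (179 and 199 CPM treated) and GPX4 (251.4 and 228 CPM) lie below all their controls and GPX3 (30.4 and 26.0 CPM) above them, while PRDX5, PRDX6 and GPX1 overlap.

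PRDX1, PRDX2, PRDX6 and GPX1, which act in the cytosol, did not pass. PRDX1 (chromosome 1, 45511036 to 45523047), the most abundant member and a peroxide sensor as well as a scavenger, had 506, 511 and 498 CPM in the controls and 493 and 494 CPM with ascorbic acid. The treated libraries lay just under the lowest control, and the fold change of 0.977 had a 95% interval of 0.919 to 1.04 (edgeR adjusted p = 0.652). PRDX2 (chromosome 19, 12796820 to 12801859), abundant in red cells, had 284.2, 288 and 302 CPM in the controls and 284.0 and 261 CPM with ascorbic acid. The first treated library was at the level of the lowest control, and the fold change was 0.935 (0.875 to 0.9996, adjusted p = 0.175, the interval not being adjusted for the number of genes). PRDX6 (chromosome 1, 173477266 to 173488807), which also acts as a phospholipase, had 481, 453 and 471 CPM against 459.6 and 417 CPM, a fold change of 0.936 (0.876 to 1.001, adjusted p = 0.184). GPX1 (chromosome 3, 49357171 to 49358600), the ubiquitous glutathione peroxidase, had 192, 198 and 203 CPM against 196 and 177 CPM, a fold change of 0.945 (0.882 to 1.01, adjusted p = 0.276). In PRDX6 and GPX1 the first treated library lay within the control range and the second below it. PRDX2 and PRDX6 passed when ascorbic acid replicate 1 was left out (-0.16 and -0.17 on the log2 scale, adjusted p = 0.0436 and 0.0318), while without ascorbic acid replicate 2 their values were -0.04 and -0.03, and those of GPX1 were -0.15 and -0.02.

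PRDX3, PRDX5 and CAT, found in mitochondria or peroxisomes, did not pass either. PRDX3 (chromosome 10, 119167703 to 119178833), the main peroxidase of the mitochondrial matrix, had 414, 404.1 and 403.6 CPM in the controls and 389 and 391 CPM with ascorbic acid. The groups did not overlap, the difference was small, with a fold change of 0.957 (0.901 to 1.02), and it did not pass (adjusted p = 0.354). PRDX5 (chromosome 11, 64318088 to 64321811) had 85.2, 81.8 and 88.3 CPM against 88.8 and 85.5 CPM, so that the groups overlapped, and a fold change of 1.02 (0.952 to 1.10, adjusted p = 0.711). CAT (chromosome 11, 34438925 to 34472062) had 43.4, 42.5 and 44.2 CPM against 38.8 and 41.5 CPM. Both treated CAT values lay below the controls, with a fold change of 0.926 (0.849 to 1.01, adjusted p = 0.241), and the log2 value ran from -0.17 without ascorbic acid replicate 2 to -0.06 without ascorbic acid replicate 1. The intervals of these 7 genes reach no further than 0.849 on the low side and 1.10 on the high side.

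**Figure D2:**
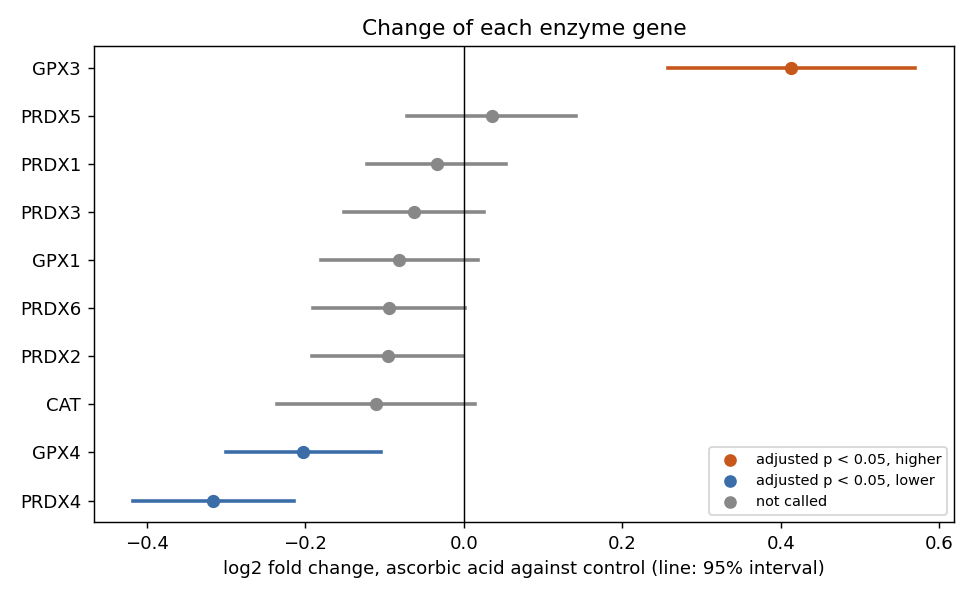
Log2 fold change of each gene with ascorbic acid against control (x axis), with points for the estimate and lines for the unadjusted 95% interval from edgeR. GPX3 (0.41) stands to the right of 0, GPX4 (-0.20) and PRDX4 (-0.32) to the left, and the 7 genes in grey, from -0.11 to 0.03, did not pass.

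The groups did not overlap in 7 of the 10 genes, 6 lower and 1 higher with ascorbic acid. Over all genes tested the groups were apart in 43.1% (20.4% lower and 22.6% higher). Abundant genes leaned the same way. Among the 7775 genes that averaged 20 CPM or more, a level that all 10 members exceed, the median log2 fold change was -0.04, 9.85% passed as lower and 6.02% as higher, and the groups did not overlap, with treatment lower, in 31.0% of them. The median of the 10 members was -0.09 (range -0.32 to 0.41), against 0.00297 over all genes tested. In 8 of the 10 members the value was below 0.

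**Figure D3:**
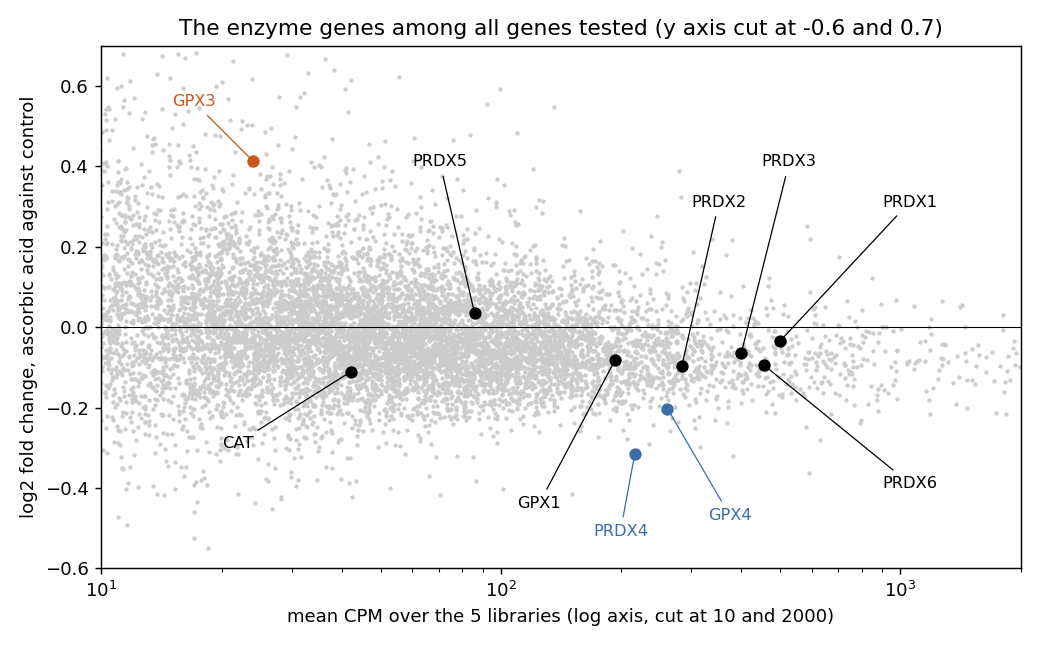
Log2 fold change (y axis) against mean CPM over 5 libraries (log x axis) for the genes tested, in grey, with the 10 enzyme genes marked, orange for higher, blue for lower and black for not called. GPX3 lies at 24.0 CPM and 0.41, and PRDX4 at 216 CPM and -0.32, below the other abundant enzyme genes.

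Divided by exon length, the members fell into an abundant and a scarce group. In the controls PRDX1 had 332 ± 4.12 CPM per kb of exon (SD, n = 3) and PRDX6 198 ± 5.89. PRDX2 (139 ± 4.52), GPX1 (138 ± 3.76) and GPX4 (137 ± 4.48) followed, and their neighbours in that order overlapped between libraries. PRDX4 (123 ± 4.74) and PRDX3 (119 ± 1.71) also overlapped, and PRDX5 (95.3 ± 3.66) lay below both. CAT (12.1 ± 0.247) and GPX3 (6.68 ± 0.281) were far lower than the rest. With ascorbic acid PRDX4 had 99.1 ± 7.37 CPM per kb (SD, n = 2) and ranked below PRDX3 (114 ± 0.315), GPX4 had 119 ± 8.32, and GPX3 had 8.91 ± 0.985. The order depends on the length used: by the longest annotated transcript PRDX4 (233.5) and GPX4 (232.9) came next after PRDX1 and PRDX6 in the controls. By that length PRDX4 (187.7) stayed above PRDX3 (171.2) with ascorbic acid.

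Summed over the 10 genes, the level was 1300.2 ± 9.53 CPM per kb in the controls (SD, n = 3) and 1219.5 ± 32.7 with ascorbic acid (SD, n = 2), and both treated libraries (1243 and 1196) lay below the lowest control (1290). PRDX4 made up 9.48 ± 0.384% of that sum in the controls and 8.13 ± 0.822% with ascorbic acid. The GPX4 share was 10.5 ± 0.307% and 9.72 ± 0.422%, and the GPX3 share 0.514 ± 0.0232% and 0.730 ± 0.0613%. PRDX1 made up 25.5 ± 0.498% and 26.6 ± 0.754%. Relative to PRDX1 in the same library, the PRDX4 level in CPM was 0.483, 0.457 and 0.454 in the controls and 0.363 and 0.402 with ascorbic acid. GPX4 relative to GPX1 was 1.40, 1.38 and 1.41 in the controls and 1.28 in both treated libraries. Neither ratio overlapped between the groups. These sums, shares and ratios over chosen members are descriptions and carry no test. The sums use TMM-scaled CPM and were not recomputed under another scaling, so how far their drop depends on it is not shown.

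**Figure D4:**
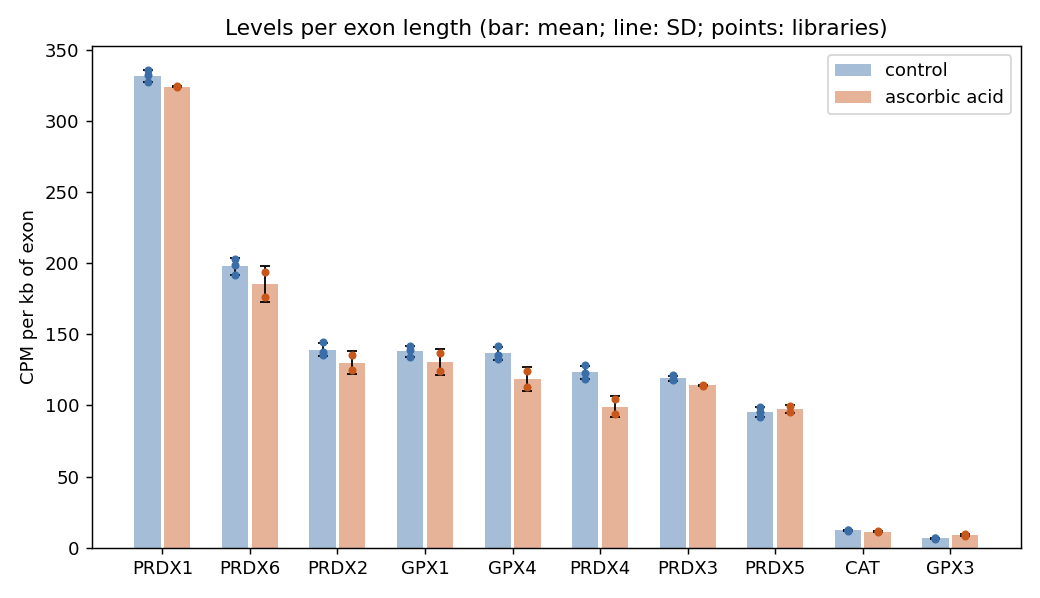
Level of each gene in CPM per kb of exon (y axis from 0), ordered by the control mean, with bars for the mean, lines for the SD and points for the libraries. PRDX1 is highest (332 in controls) and CAT (12.1) and GPX3 (6.68) lowest, and PRDX4 drops from 123 to 99.1.

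Genes that recharge or feed these enzymes, or that work around them, were read from 10 lists. Over the lists, 116 of 134 genes were tested and 18 passed, 11 higher and 7 lower, which is 15.5% and near the share over all genes. In the thioredoxin system, which recharges the peroxiredoxins, 0 of 12 genes passed in edgeR, DESeq2 or limma-voom, and 0 had an unadjusted edgeR p under 0.05. With GC and length trends removed 2 of the 12 passed, 1 higher and 1 lower, where 21.2% of all genes did. Thioredoxin (TXN) had 438 ± 13.1 CPM (SD, n = 3) and 441 ± 8.56 CPM (SD, n = 2), and its reductase TXNRD1 261 ± 9.94 and 262 ± 2.99 CPM. Their log2 fold changes were 0.01 and 0.0041. The list includes sulfiredoxin and the sestrins, and its members ran from -0.11 to 0.10.

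Of 14 tested genes of glutathione supply and recycling 2 passed, both higher. They were the cystine transporter SLC7A11 (0.20, edgeR adjusted p = 0.0176) and the glutaredoxin GLRX (0.30, adjusted p = 0.0439). The SLC7A11 call ended without control replicate 1, control replicate 3 or ascorbic acid replicate 2 and with the replicate block (adjusted p = 0.0574), and the GLRX call without control replicate 1 or 2 or either treated library, with the block (0.0547), with DESeq2 (0.0916) and with the trend over expression removed (0.173). Of 13 NADPH supply genes, which keep both reductants charged, 2 were higher and 1 lower. The mitochondrial isocitrate dehydrogenase IDH2 rose by 0.28 on the log2 scale (40.7 ± 0.556 CPM in controls, SD, n = 3, and 49.3 ± 2.86 CPM treated, SD, n = 2; edgeR adjusted p = 0.00205), and the folate enzyme MTHFD1 fell (-0.21, 487.5 ± 5.90 and 421 ± 10.1 CPM, adjusted p = 0.00131). PGLS of the pentose phosphate pathway (0.28, adjusted p = 0.0106) lost its call without ascorbic acid replicate 1 (0.152).

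The ER list holds the oxidases and disulfide isomerases that work beside PRDX4. Of its 13 genes 3 were lower and 1 higher, with a median log2 fold change of -0.07. Those lower were TXNDC12 (-0.21, edgeR adjusted p = 0.0103), PDIA6 (-0.14, adjusted p = 0.0360) and ERP44, and the sulfhydryl oxidase QSOX1 was higher (0.23, adjusted p = 0.0137). The TXNDC12 call ended without control replicate 1, the QSOX1 call without ascorbic acid replicate 1, and the PDIA6 call without control replicate 1, control replicate 2 or ascorbic acid replicate 2 and also under library totals, under upper-quartile scaling, with the 5 CPM filter and with the trend over expression removed (adjusted p = 0.0668 to 0.235). ERP44 (-0.15, adjusted p = 0.0493), which retains PRDX4 in the ER, was named after its value was seen, and its call ended in 15 of 18 alternative fits, whichever library was left out included, and stood with DESeq2, with the size factors of DESeq2 and with limma-voom.

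GPX1, GPX3 and GPX4 need the machinery that inserts selenocysteine. Of 9 tested genes of that machinery 1 passed: EEFSEC, the elongation factor that delivers selenocysteine, rose from 26.6, 25.00 and 28.9 CPM to 41.3 and 39.0 CPM. The groups were far apart, the change being 0.58 ± 0.07 on the log2 scale (SE, edgeR adjusted p = 6.95e-07), and EEFSEC also passed against a fold of 1.2. Of 12 other selenoprotein genes 2 were higher and 1 lower. SELENON, a regulator of calcium handling in the ER, rose (0.22, adjusted p = 0.00330). The selenium carrier SELENOP was higher (0.64, adjusted p = 0.0104), but not called without control replicate 1 or ascorbic acid replicate 2 (adjusted p = 0.395), nor with the trend removed (0.0794). The call of SELENOK as lower (-0.17, adjusted p = 0.0416) ended in 13 of 18 alternative fits, among them those without each of the 5 libraries in turn.

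Of the other glutathione peroxidases GPX8, an ER enzyme, was tested and did not pass (65.9 ± 3.29 CPM, n = 3, and 67.5 ± 0.205 CPM, n = 2, mean ± SD). GPX2 had 1 to 8 counts per library and GPX7 0 to 6, and GPX5 and GPX6 had 0 in all libraries, which allows up to 3 counts, or 0.0855 CPM in the shallowest library. Of 12 tested genes linked to the making or removal of lipid peroxides beside GPX4, SLC7A11 was higher and VKORC1L1, a vitamin K reductase, lower (-0.16, edgeR adjusted p = 0.0302). That call ended without control replicate 1, control replicate 2 or ascorbic acid replicate 2. It also ended with the trend removed, library totals, upper-quartile scaling or the 5 CPM filter (adjusted p = 0.0521 to 0.164 for those changes). Of 18 peroxisome assembly genes, which bring catalase to its organelle, the docking protein PEX13 rose (0.30, adjusted p = 0.00464) and the membrane protein chaperone PEX19 was lower (-0.16, adjusted p = 0.0269). PEX19 was not called without control replicate 1 or 2 or ascorbic acid replicate 1. Its call also ended with the trend removed, library totals or the 5 CPM filter (adjusted p = 0.0624 to 0.147 for those changes). Of 13 tested dismutases and peroxide sources 2 were higher, MAOA (0.66, adjusted p = 0.0203) and the oxidase NOX4 (1.84, adjusted p = 0.0332). Control libraries held 6, 2 and 10 NOX4 counts and treated libraries 12 and 34, so its groups overlapped once scaled. NOX4 would not have met the low-count filter on the control libraries alone, so its test leans on the group where it is high. It was tested in 16 of 18 alternative fits. The MAOA call ended without control replicate 1 or 2 or ascorbic acid replicate 1 and with DESeq2 (adjusted p = 0.0587), and the NOX4 call without control replicate 1 or 2 or ascorbic acid replicate 2 (0.78), while DESeq2 gave NOX4 no adjusted p. Both calls also ended with the trend over expression removed (adjusted p = 0.109 and 0.191).

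Genes with the pattern nearest to each called member over the 5 libraries were found among 10585 genes of at least 5 CPM by the distance between centred log2 CPM values. For PRDX4 they were POU3F2 (0.0455), PIM2 (0.0482) and PIBF1 (0.0528). For GPX3 they were RIN3 (0.0298), ARNT2 (0.0627) and RAB3D (0.0802), and for GPX4 MRPL12 (0.0378), MCM2 (0.0400) and CES2 (0.0413). With 5 libraries in 2 groups such distances describe these libraries alone.

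Library totals ran from 35106664 to 57212071 counts, and the members had 700 to 28482 counts per library. Of counts from 1 to 10, 71.3 to 75.9% were even, as if each end of a fragment had been counted, so the counting error exceeds that of independent counts. Among the marker lists, 6 of 9 tested neural markers known from HEK293 cells were higher with ascorbic acid (summed 161 to 171 CPM in controls and 191 to 202 CPM treated). The share of all genes tested that passed as higher was 8.53%, against which this count and the haematopoietic one below are to be read. PDGFRB, EPCAM and KRT17 would not have met the low-count filter on the control libraries alone. The fibroblast and epithelial counts that follow therefore lean on the treated group and are not compared with that share. Of 5 tested fibroblast markers 3 were higher (13.7 to 14.7 CPM and 27.03 to 27.99 CPM, with FAP at 0). Of 5 tested keratinocyte and epithelial markers 3 were higher (23.1 to 27.4 CPM and 23.8 to 28.96 CPM in sum, with KRT5 and KRT1 at 0). Those sums overlapped and were mostly KRT10 (19.9 to 24.5 CPM in controls, 24.3 and 18.9 CPM treated). EPCAM had 8 to 10 counts per control library and 34 and 36 treated, and KRT17 2 to 6 and 14 and 16. Of 4 tested haematopoietic markers 1 was higher (75.6 to 79.9 CPM and 83.4 to 90.9 CPM, with CD3E and TYROBP at 0). The hepatocyte markers, whose cells are rich in catalase, summed to 0.132 to 0.266 CPM in the controls and 0.412 to 0.468 CPM treated, with 0 of 1 tested called and APOB, SERPINA1 and FGA at 0. The erythroid markers, whose cells are rich in PRDX2, summed to 0.116 to 0.263 CPM and 0.117 to 0.165 CPM, too low for any to be tested, with HBB and AHSP among those at 0. The part of these markers in the members' values was not tested. PRDX1 shares 24.9% of its exon length with MMACHC on the opposite strand (MMACHC -0.09, edgeR adjusted p = 0.442). PRDX1 to PRDX4 and GPX1 have 1 to 4 named pseudogenes each, none of which has a row in the table, so reads that match more than 1 copy leave their values uncertain.

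The 3 calls also stood with DESeq2 (11.9% of all genes passed), limma-voom (14.3%), upper-quartile scaling (13.3%), the size factors of DESeq2 (14.8%), library totals (13.8%), no filter (11.0%), the 5 CPM filter (15.3%), the replicate block (12.3%), no robust prior (14.0%), halved counts (15.7%) or the trend over expression removed (9.48%). They stood as well without control replicate 1 (7.79%), 2 (10.5%) or 3 (13.4%). Without ascorbic acid replicate 1, 5 of the 10 passed, PRDX2 and PRDX6 being added (9.45% of all genes), and without ascorbic acid replicate 2, PRDX4 and GPX3 passed (9.79%). With GC and length trends removed 5 passed, with GPX1 and PRDX2 added, where 21.2% of all genes did. Tested with glmTreat against a fold of 1.2, 0 of the 10 passed (2 at an unadjusted p under 0.05), against 1.87% of all genes, so none of these changes was shown to exceed that fold.

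**Figure D5:**
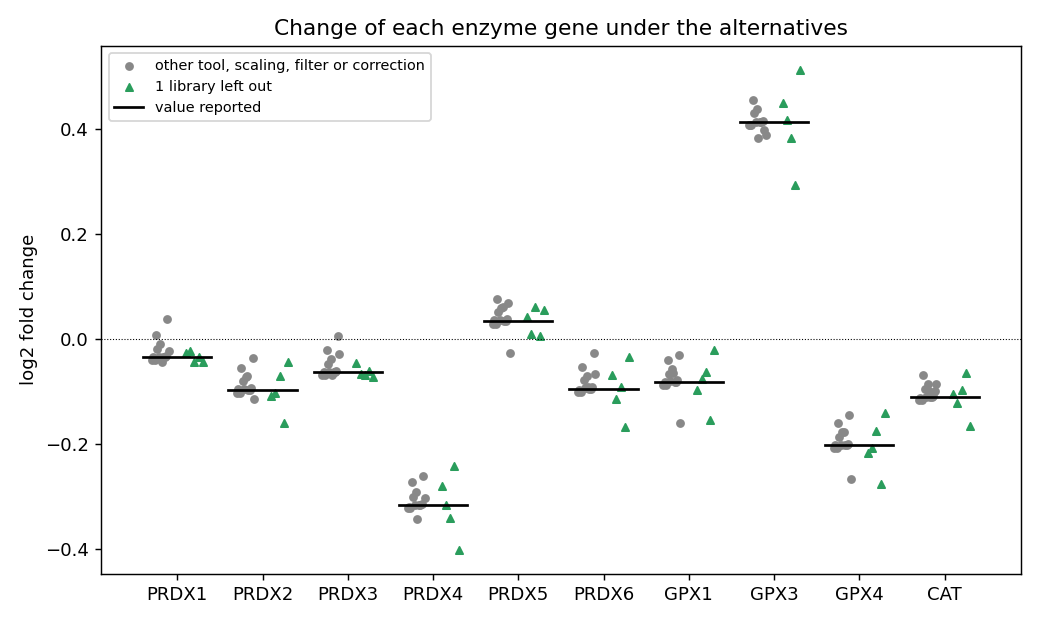
Log2 fold change of each gene (y axis) as reported (line), under other tools, scalings, filters or corrections (grey points) and with 1 library left out (green triangles). PRDX4 (-0.40 to -0.24), GPX4 (-0.28 to -0.14) and GPX3 (0.29 to 0.51) keep their sign in every fit shown, and the widest moves come from leaving out a treated library.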

How the data were processed

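The authors deposited whole-number counts of reads per gene for 5 libraries. The submitters' processing notes name Trimmomatic 0.39, STAR, featureCounts, DESeq2 and the hg38 (GRCh38) build. The strand setting, annotation and handling of reads with several matches were not stated there. Column names gave the sample, "vc" being taken as vitamin C and "con" as control.

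After filterByExpr and TMM scaling (factors 0.984 to 1.03), the groups were compared by the two-sided quasi-likelihood test of edgeR 4.0.16 (R 4.3.3), using a robust prior and no covariates. P-values were adjusted by Benjamini-Hochberg across all 15271 tested genes and called at 0.05. Standard errors and 95% intervals were derived from each gene's F statistic and fold. On counts simulated for the 5 libraries (15128 genes, 50 altered per fold size) the fit recovered 60% at a fold of 1.2 and 100% at 1.5, with 10 false of 190 calls. The simulation gave every gene the same spread, altered only genes above 5 CPM and did not copy the excess of even counts. Its recovery and false calls may therefore differ from those in the real data. Replicates differed by more than counting noise (chi-square per degree of freedom 3.95 to 7.20). Lengths, GC and positions are from GENCODE 29, which 25558 symbols matched.

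The members and lists were chosen with earlier results of these data known. Named are all members, up to 3 called genes of each list by smallest p (else its 2 highest expressed), and the 3 nearest patterns of each called member. Also named are ERP44, GPX2, GPX5, GPX6, GPX7, LRP2, SLC13A3, MMACHC, PDGFRB, EPCAM, KRT17, KRT10 and marker genes at 0. Alternatives were DESeq2 1.42.0, limma-voom (limma 3.58.1), other scalings and filters, glmTreat at a fold of 1.2, the replicate number as block, a prior that is not robust, halved counts, cyclic loess, removal of GC and length trends (mgcv 1.9.3) and each library left out.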

Additional observations from a re-analysis of the deposited data

How the results depend on the processing

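Of 180 alternative fits of the members (18 each), 168 kept the direction and the side of the threshold. The calls of PRDX4, GPX3 and GPX4 held under all but the test against a fold of 1.2, and GPX4 also ended without ascorbic acid replicate 2. Against that fold (glmTreat) 0 members, 286 genes in all and 1 list gene passed, with 2 members at an unadjusted p under 0.05. With GC and length trends removed 5 members passed, GPX1 (-0.16) and PRDX2 (-0.11) being added, while 21.2% of all genes passed, and 32 list genes did. With the trend over expression removed 1448 genes and 9 list genes passed. With 1 library left out the counts ran from 1180 to 2047 genes, 2 to 5 members and 7 to 17 list genes, and the log2 ratio of the summed level, -0.09 as reported, from -0.12 to -0.065. Values that changed sign were small: PRDX1 0.0081 with library totals and 0.038 with the trend removed, PRDX3 0.0052 with the trend removed and PRDX5 -0.027 with GC and length removed. With 1 library left out TXN ran from -0.010 to 0.025, being below 0 (-0.0087 and -0.010) without control replicate 1 or ascorbic acid replicate 1. TXNRD1 became -0.0018 with DESeq2 or its size factors, -0.026 with the replicate block, and ran from -0.026 to 0.033 with 1 library left out, below 0 without control replicate 3 or ascorbic acid replicate 2. GPX8 became -0.0033 with the block and ran from -0.0029 (without control replicate 3) to 0.067 with 1 library left out. The cause was not tested. Where 1 treated library remains, the fit takes its spread from the controls.

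The labels share replicate numbers without saying that a number marks a shared culture or day. Same-numbered libraries did not deviate together (correlations 0.02 and 0.01). With 2 treated libraries the deviations of that group mirror each other, so these values cannot tell whether a culture or day was shared. With the replicate block 1880 genes, 3 members and 16 list genes passed, and PRDX4, GPX3 and GPX4 had -0.34, 0.38 and -0.18.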
